A study of Sus scrofa with 15 samples.

Results

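Extracellular matrix and adhesion genes of the sow mammary gland were followed across the last 14 days of gestation and the first day of lactation. They were the genes whose symbol began with a family prefix for collagen chains, laminins, integrins, matrix metalloproteinases and ADAM proteins, their inhibitors, fibulins, fibrillins, thrombospondins, cadherins, protocadherins, claudins, lysyl oxidases, SPARC proteins, tenascin C, nidogens or perlecan. A symbol counted where the supplementary gene list of the study paired it with a gene ID, and the gene needed a CPM (reads scaled to the normalized library size) of 1 or more in at least 3 of 15 libraries. With this rule 21 genes were found among 25322 gene IDs in the files, and all 21 passed the filter on low counts, as did 13503 genes in all. That gene list was held only in part, so the 21 are the family members in the part held. A further 116 tested genes fit the same prefixes by a reference table of names and are described after the 21.

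The extracellular matrix is the protein network around and beneath cells. In the mammary gland, fibrillar collagens form the connective tissue between ducts and lobules, whereas type IV collagen and laminins form the basement membrane on which the secretory epithelium rests. Integrins tie cells to that network, claudins and cadherins tie epithelial cells to each other, and metalloproteinases cut matrix proteins when the tissue is remodelled. Epithelial expansion before birth and the closing of tight junctions at the onset of milk secretion are known steps of gland development in which these families take part.

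The 15 libraries were messenger RNA from mammary biopsies of 3 sows, each sampled at 14, 10, 6 and 2 d prepartum and at 1 d postpartum, with 3 libraries per time point. All were crossbred Danish Landrace and Yorkshire sows in their second parity, picked for their high colostrum yield. Each of the 3 received a different diet, which began in late gestation, after the time of the 14 d biopsy, and ran through lactation. It was made with alfalfa meal and trioctanoate, with sugar beet pulp and palm fatty acid distillate, or with alfalfa meal and soybean oil, and the effect of the sow and that of the diet cannot be told apart. In comparisons with 14 d, time and the change to these diets cannot be told apart either. The biopsies were bulk tissue taken repeatedly from the same animals, and there was no untreated control other than the earliest time point. Each biopsy needed an incision and was followed by the drug Banamine. Every time after 14 d thus came after earlier biopsies, and time and earlier biopsies cannot be told apart. Total counts per library ranged from 10782343 to 19952918, and the 10 most abundant genes took 16.56% to 53.81% of them. Factors of TMM (trimmed mean of M-values) normalization ranged from 0.5451, in 1 library of 1 d postpartum, to 1.238. Beta-casein (CSN2), a milk protein, was present in every library, between 1070 and 3178 CPM at 14 d prepartum and between 20610 and 248100 CPM at 1 d postpartum.

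With TMM, postpartum tissue held more LOXL1 and ADAM28 transcript and less COL4A2, ADAMTS7 and MMP16 transcript than tissue of 14 d prepartum. LOXL1 crosslinks elastin, ADAM28 is a membrane-bound protease, COL4A2 is a basement membrane collagen, and ADAMTS7 and MMP16 are metalloproteinases. CLDND1, a claudin-domain membrane protein that matched by its symbol and is not a classical claudin, was higher by 0.50 on the log2 scale at 1 d postpartum with TMM and lower by a value of -0.13 without it. ADAMTS14, which trims the N-terminus of fibrillar procollagens, fell between 2 d prepartum and 1 d postpartum. In bulk tissue, fewer cells of a type and less RNA per cell cannot be told apart.

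A gene was called in a comparison when edgeR's quasi-likelihood test passed at 0.05 after Benjamini-Hochberg adjustment, both for any effect of time and for the comparison. Unless another fit is named, calls are from the main fit. It left out the sow and treated the repeated libraries of a sow as independent. In the overall test of time, 7 of the 21 genes passed, against 25.8% of all genes tested. These were 1 of 5 collagen chains, 1 of 5 other matrix proteins, 4 of 5 metalloproteinases and 1 of 6 adhesion genes. At 10 d and at 6 d prepartum none of the 21 was called against 14 d, as was 0% of all genes, and 0 of the 21 had an unadjusted p of 0.05 or less in either comparison. At 2 d prepartum 0 of 21 were called against 14 d, with 2.84% of all genes called. Before adjustment, 7 of the 21 were within the 0.05 limit there, as were 2892 of all 13503 genes. On the first day postpartum 6 of 21 were called against 14 d, close to the 23.7% of all genes. Of these 6, 3 were higher, with 13.3% of all genes called higher, and 3 were lower, with 10.4% called lower. From 2 d prepartum to 1 d postpartum 5 of 21 were called, 3 higher and 2 lower, where 15.2% of all genes were called, 8.01% higher and 7.24% lower. With the sow as a block, described later, 5 of 21 were called at 2 d against 14 d (8.68% of all genes). At 1 d postpartum against 14 d that fit called 14 of 21 (30.1% of all genes).

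The median change of the 21 genes lay below 0 through late gestation. On the log2 scale it was -0.06 at 10 d, -0.14 at 6 d and -0.29 at 2 d prepartum, always against 14 d, while the median over all genes tested was 0.00, -0.00 and -0.01. Of the 21 genes, 12, 16 and 18 lay below 0 in these comparisons. The median at 1 d postpartum against 14 d was -0.24, beside 0.02 over all genes, and 14 of 21 lay below 0. Between 2 d prepartum and 1 d postpartum it was 0.12, beside 0.02 over all genes. Summed over the 21 genes, the level was between 4833 and 7047 CPM in the libraries of 14 d prepartum, between 4372 and 4532 CPM at 2 d, and between 2723 and 4286 CPM at 1 d postpartum, and collagen chains made up most of each sum.

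**Figure D1:**
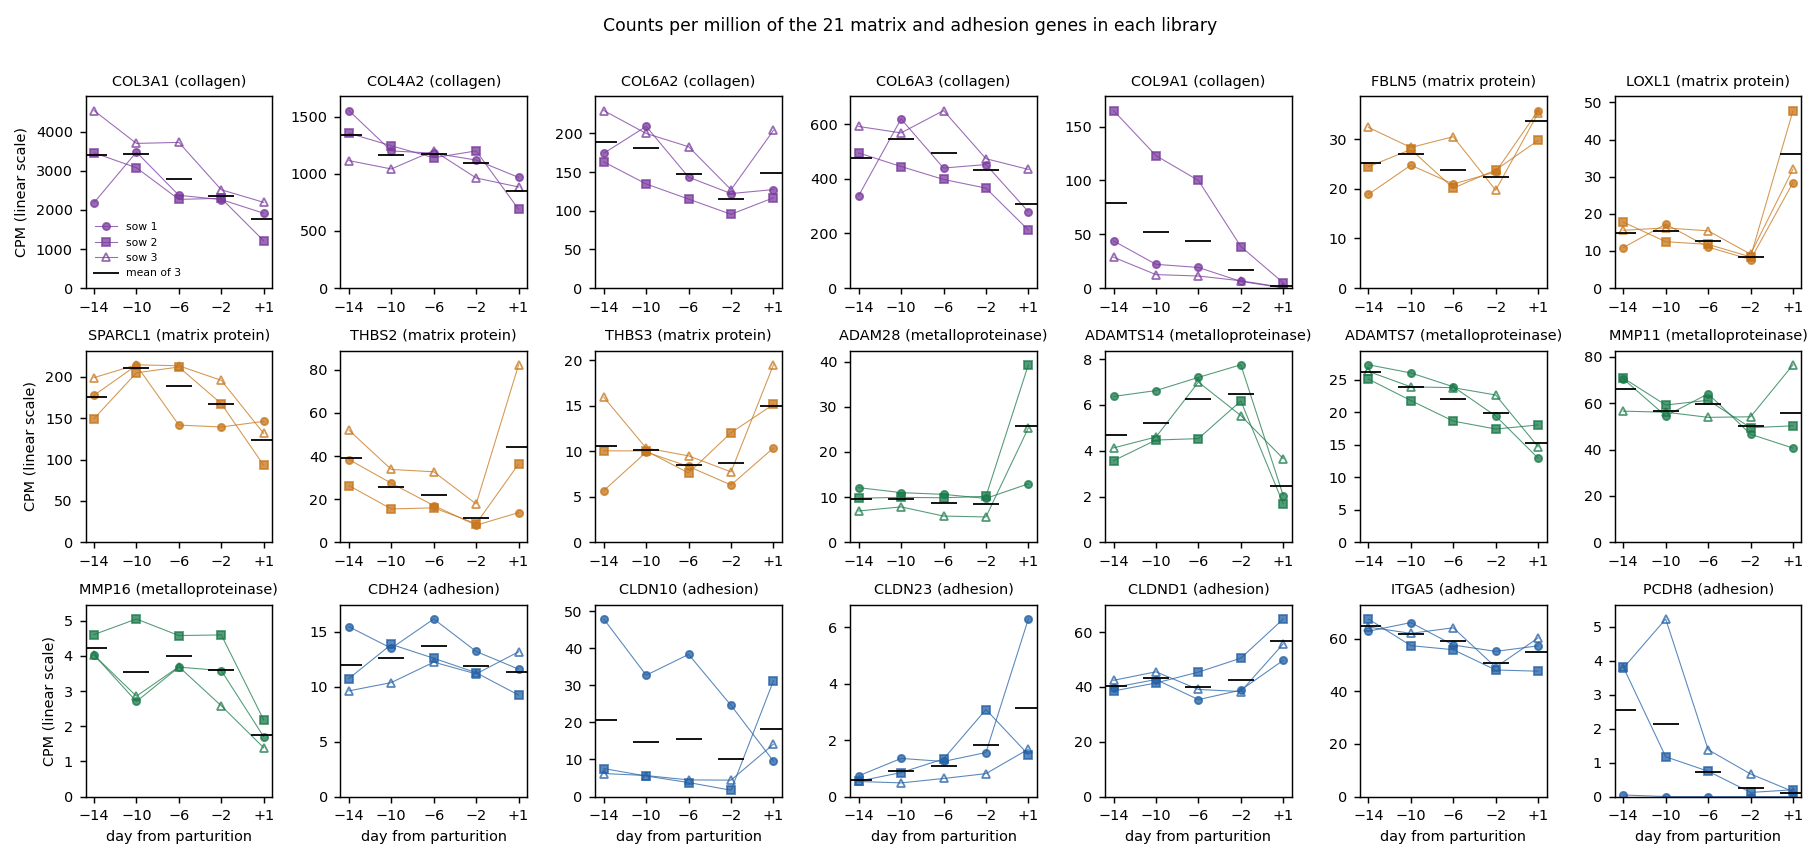
Normalized level in CPM (linear scale, starting at 0) of each of the 21 genes by day from parturition, with 1 marker per library, the marker shape for the sow and a line through the mean of 3 libraries. LOXL1 and ADAM28 lay highest at 1 d postpartum in all 3 sows, ADAMTS7 and MMP16 lay below 14 d prepartum there in all 3 sows, and COL9A1, CLDN10 and PCDH8 differed more between sows than between most times.

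Measured per transcript length, COL3A1 was the most abundant of the 21 at 14 d prepartum, at 713 ± 248 RPKM (reads scaled to library size and exon length, mean ± SD, n = 3). COL4A2 followed at 230 ± 37.6 RPKM, and its SD range did not meet that of COL3A1. SPARCL1, a secreted matrix-associated glycoprotein, at 63.7 ± 9.02 RPKM, COL6A2 at 60.8 ± 11.4 RPKM and COL6A3 at 48.4 ± 13.02 RPKM had overlapping SD ranges, all below that of COL4A2. MMP11 at 29.1 ± 3.59 RPKM and COL9A1 at 28.6 ± 26.9 RPKM came next. From 19.9 ± 0.978 RPKM for CLDND1 down to 0.604 ± 0.514 RPKM for PCDH8 the remaining genes formed a graded series. Neighbours in that series had overlapping SD ranges, except that CLDN23 lay below ADAMTS14. The lowest 4 were MMP16 at 1.59, ADAMTS14 at 1.27, CLDN23 at 0.694 and PCDH8 at 0.604 RPKM.

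All 5 collagen chains had a mean below that of 14 d prepartum at 2 d prepartum and at 1 d postpartum, with median log2 changes of -0.53 and -0.66, and 1 of them was called. COL4A2 (ENSSSCG00000009545, Sscrofa10.2 chr11:84613773-84675898) pairs with the alpha-1 chain in the collagen network of basement membranes. In sows 1, 2 and 3 its level was 1554, 1356 and 1116 CPM at 14 d prepartum, 1121, 1201 and 964 CPM at 2 d, and 969, 690 and 885 CPM at 1 d postpartum. The postpartum libraries were all below those of 14 d, whereas the libraries of 2 d overlapped both. COL4A2 fell by 0.66 on the log2 scale (SE 0.15, adjusted p = 0.0043, edgeR) from 14 d prepartum to 1 d postpartum, and was lower in 3 of 3 sows. The overall test of time was close to its threshold for this gene, at an adjusted p of 0.040, and leaving out 1 library ended the call in 10 of 15 cases.

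COL3A1 (ENSSSCG00000016034, chr15:104067018-104105776), a fibrillar collagen of soft connective tissue, had the highest level of the 21. It stood at 2185, 3462 and 4542 CPM at 14 d prepartum, at 2265, 2297 and 2516 CPM at 2 d and at 1915, 1211 and 2194 CPM at 1 d postpartum. Each sow was lower postpartum than at 14 d, but sow 1 began low, so the groups overlapped narrowly. The postpartum difference from 14 d was -0.94 on the log2 scale (SE 0.27, adjusted p = 0.016), and the gene was not called because the overall test had an adjusted p of 0.067 (edgeR). Without the library of sow 1 at 14 d prepartum (replicate 1) the difference was -1.18 and the gene was called, as it was without the 6 d library of sow 3 (replicate 25).

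COL6A2 and COL6A3 encode chains of type VI collagen, a beaded microfibril between cells and the fibrillar matrix, and they followed different courses. COL6A2 read 174, 163 and 229 CPM at 14 d, 122, 95.4 and 127 CPM at 2 d, and 127, 117 and 204 CPM at 1 d postpartum. Its 2 d libraries all lay below those of 14 d, and the postpartum ones overlapped both. The difference at 2 d was -0.72 (SE 0.24, adjusted p = 0.12, edgeR). COL6A3 ranged from 338 to 591 CPM at 14 d, from 366 to 473 CPM at 2 d and from 212 to 434 CPM at 1 d postpartum, with overlap throughout.

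COL9A1, a collagen known mainly from cartilage, had the widest range of the 5 collagen chains in relative terms. Sow 2 went from 165 CPM at 14 d through 123, 99.9 and 38.6 CPM to 4.96 CPM at 1 d postpartum. Sow 1 went from 43.8 through 22.1, 19.2 and 6.25 to 0.170 CPM, and sow 3 from 28.7 through 12.5, 11.2 and 6.79 to 0.658 CPM. The order of times was the same in each sow, and sow 2 was the highest at every time. The difference between 1 d postpartum and 14 d prepartum was -5.28 on the log2 scale (SE 1.40, adjusted p = 0.011), and with an overall adjusted p of 0.071 the gene was not called by edgeR without the sow.

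Markers of the cells known to make these collagens had the following levels. The 7 fibroblast markers, of which LUM, POSTN, SRPX and SVEP1 are also in the matrix protein list described later and DDR2 in the collagen receptor list, summed to between 981 and 1504 CPM at 14 d, to between 644 and 716 CPM at 2 d and to between 357 and 869 CPM at 1 d postpartum. Of the 7, DDR2 was called higher and LUM and SRPX were called lower at 1 d postpartum against 14 d. Summed over 9 endothelial markers the level was between 221 and 282 CPM at 14 d and between 202 and 242 CPM at 1 d postpartum, with ACKR1 called higher and CD93 lower. Over all genes, 13.3% were called higher and 10.4% lower at 1 d postpartum against 14 d. Without TMM, 1 fibroblast marker was called higher and 3 lower, and 0 endothelial markers higher and 6 lower. Calls over all genes then were 530 higher and 5158 lower. The part of either cell type in the collagen differences was not tested.

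Among the 5 other matrix and crosslinking genes LOXL1 was the 1 called. LOXL1 (ENSSSCG00000001914, chr7:64102994-64126775) is a lysyl oxidase-like enzyme that acts on tropoelastin during elastic fibre assembly. Its level in sows 1, 2 and 3 was 10.9, 17.8 and 15.6 CPM at 14 d, 17.2, 12.5 and 16.2 CPM at 10 d, 11.1, 11.8 and 15.4 CPM at 6 d, 7.70, 8.41 and 9.15 CPM at 2 d, and 28.4, 47.8 and 32.0 CPM at 1 d postpartum. The libraries of 2 d prepartum were the lowest of the course and those of 1 d postpartum the highest, and neither set overlapped the libraries of 14 d. By total counts the postpartum set did overlap that of 14 d. Sow 1 had 167 LOXL1 counts of 10782343 postpartum, and sow 2 had 424 of 19292238 at 14 d. From 14 d prepartum to 1 d postpartum LOXL1 rose 2.45-fold, by 1.29 on the log2 scale (SE 0.22, adjusted p = 0.00078, edgeR). From 2 d prepartum it rose 4.30-fold, by 2.10 (SE 0.23, adjusted p = 0.00012), in 3 of 3 sows. The difference at 2 d against 14 d was -0.81 (SE 0.23, adjusted p = 0.071). Both of its calls held when any of the 15 libraries was left out. Without TMM the change against 14 d was 0.675 (adjusted p = 0.078) and was not called, and that against 2 d was 1.89 (adjusted p = 0.0015).

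THBS2, a matricellular thrombospondin, had a low point at 2 d prepartum. It read 38.4, 26.3 and 52.0 CPM at 14 d, 7.93, 8.66 and 17.8 CPM at 2 d and 13.8, 36.3 and 82.3 CPM at 1 d postpartum. The 2 d libraries lay below all those of 14 d, while the postpartum libraries ran from below to above them. The log2 difference was -1.77 at 2 d against 14 d (SE 0.55, adjusted p = 0.092) and 1.97 from 2 d to 1 d postpartum (SE 0.55, adjusted p = 0.025), with an overall adjusted p of 0.083, so THBS2 was not called (edgeR). THBS3, its paralogue, had a postpartum difference from 14 d of 0.53 (SE 0.33, adjusted p = 0.24), which was -0.09 without TMM.

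FBLN5, an elastic fibre protein to which LOXL1 is known to bind, was between 18.9 and 32.4 CPM at 14 d, between 19.7 and 23.8 CPM at 2 d, and between 29.8 and 35.8 CPM at 1 d postpartum. Its postpartum libraries all lay above those of 2 d, and the log2 difference of 0.59 between these times had an adjusted p of 0.052 (SE 0.20, edgeR). SPARCL1 was between 149 and 199 CPM at 14 d and between 93.0 and 146 CPM at 1 d postpartum, with no overlap. Its log2 difference of -0.51 had an adjusted p of 0.057 (SE 0.19) and it was not called.

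Of the 5 metalloproteinases 3 were called at 1 d postpartum against 14 d (23.7% of all genes) and 3 against 2 d (15.2% of all genes). ADAM28 (ENSSSCG00000009644, chr14:9426169-9481493), an ADAM-family protease described in lymphocytes and epithelia, stayed between 5.61 and 12.1 CPM in all 12 prepartum libraries. At 1 d postpartum it was 12.9, 39.3 and 25.3 CPM in sows 1, 2 and 3. By normalized level all 3 postpartum libraries lay above every prepartum library, and sow 1 did so narrowly. Sow 1 had 76 ADAM28 counts of 10782343 postpartum (TMM factor 0.5451) and 264 of 18924790 at 14 d. By total counts this sow was therefore lower postpartum than at 14 d. ADAM28 rose by 1.44 on the log2 scale against 14 d (SE 0.36, adjusted p = 0.0081, edgeR) and by 1.61 against 2 d (SE 0.37, adjusted p = 0.0086). Without the postpartum library of sow 2 (replicate 40) the differences were 1.02 and 1.19, and both calls were lost. Without TMM the change against 14 d was 0.884 (adjusted p = 0.075) and was not called.

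ADAMTS7 (ENSSSCG00000001765, chr7:53451724-53469404) is a secreted metalloproteinase known to cleave cartilage oligomeric matrix protein. It was 27.3, 25.1 and 26.3 CPM at 14 d, 19.4, 17.4 and 22.7 CPM at 2 d, and 12.9, 18.1 and 14.7 CPM at 1 d postpartum. The libraries of 2 d and those of 1 d postpartum all lay below those of 14 d, and they overlapped each other. ADAMTS7 fell by 0.78 on the log2 scale from 14 d to 1 d postpartum (SE 0.15, adjusted p = 0.0015, edgeR), and this call held when any of the 15 libraries was left out.

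MMP16 (ENSSSCG00000006132, chr4:53437527-53598063), a membrane-type metalloproteinase, was 4.03, 4.61 and 4.03 CPM at 14 d, 3.59, 4.60 and 2.58 CPM at 2 d, and 1.70, 2.18 and 1.39 CPM at 1 d postpartum. The postpartum libraries were below all those of 14 d and of 2 d. MMP16 fell by 1.27 against 14 d (SE 0.30, adjusted p = 0.0056) and by 1.04 against 2 d (SE 0.30, adjusted p = 0.030, edgeR). Its overall adjusted p was 0.041, and leaving out 1 library ended the call in 10 and 11 of 15 cases.

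ADAMTS14 (ENSSSCG00000010272, chr14:79413375-79501706) was 6.37, 3.56 and 4.12 CPM at 14 d, 7.75, 6.17 and 5.54 CPM at 2 d, and 2.04, 1.69 and 3.66 CPM at 1 d postpartum. Every sow had more at 2 d than at 14 d and less at 1 d postpartum than at either, and the postpartum libraries did not overlap those of 2 d. From 2 d to 1 d postpartum ADAMTS14 fell by 1.35 (SE 0.33, adjusted p = 0.012, edgeR), and against 14 d the difference of -0.88 had an adjusted p of 0.052. The call against 2 d was lost in 9 of 15 fits with 1 library left out. MMP11, a stromal metalloproteinase, had its lowest mean at 2 d, where its libraries of 46.6 to 54.2 CPM lay below those of 56.6 to 70.9 CPM at 14 d, with a log2 difference of -0.40 (SE 0.18, adjusted p = 0.22).

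Of the 6 adhesion genes CLDND1 (ENSSSCG00000011980, chr13:170587050-170594820) was the 1 called. It was 39.8, 38.5 and 42.4 CPM at 14 d, 38.8, 50.5 and 38.3 CPM at 2 d, and 49.7, 64.8 and 55.7 CPM at 1 d postpartum. Postpartum libraries were all above those of 14 d, and the library of sow 2 at 2 d reached into their range. The log2 change was 0.50 against 14 d (SE 0.13, adjusted p = 0.012) and 0.42 against 2 d (SE 0.13, adjusted p = 0.045, edgeR), with an overall adjusted p of 0.041. Leaving out 1 library ended these calls in 11 and 12 of 15 cases, and total counts without TMM turned the first to -0.13.

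CLDN23, a claudin, was the least abundant claudin among the 21. It was 0.733, 0.545 and 0.534 CPM at 14 d, 1.56, 3.09 and 0.812 CPM at 2 d and 6.30, 1.49 and 1.68 CPM at 1 d postpartum. The later libraries were above those of 14 d at both times, and the postpartum mean rested on sow 1. The difference of 2.28 at 1 d postpartum (SE 0.63, adjusted p = 0.013) came with an overall adjusted p of 0.063, so CLDN23 was not called (edgeR). CLDN10, a claudin known to form ion-selective pores, split by sow. Sow 1 went from 47.9 CPM at 14 d to 24.6 CPM at 2 d and 9.53 CPM at 1 d postpartum, whereas sow 2 went from 7.55 to 1.69 and then 31.2 CPM, and sow 3 from 6.21 to 4.43 and then 14.1 CPM. At the last time sow 1 was lower than at 14 d and the other sows were higher, and the log2 difference of -0.15 had an SE of 1.13.

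PCDH8, a protocadherin, was 0.0458 CPM at 14 d and 0 CPM at each later time in sow 1. In sows 2 and 3 it was 3.81 and 3.78 CPM at 14 d and 0.121 and 0.664 CPM at 2 d, and 0.198 and 0.146 CPM at 1 d postpartum. It passed the filter through prepartum libraries of these 2 sows alone. ITGA5, the alpha chain of the classical fibronectin receptor, was 62.9, 67.6 and 64.5 CPM at 14 d, 55.3, 48.2 and 49.2 CPM at 2 d and 57.4, 47.7 and 60.4 CPM at 1 d postpartum. All 6 later libraries lay below those of 14 d, with log2 differences of -0.35 (SE 0.11, adjusted p = 0.082) and -0.24 (SE 0.11, adjusted p = 0.10, edgeR). CDH24, a cadherin, had a postpartum difference from 14 d of -0.07 (SE 0.20, adjusted p = 0.81). Epithelial markers, 6 genes, summed to between 964 and 1007 CPM at 14 d and to between 465 and 671 CPM at 2 d. At 1 d postpartum the sum was between 356 and 914 CPM. FOXA1 and TFAP2C were called lower there against 14 d and none higher, and without TMM 3 were lower. The part of these markers in the adhesion gene results was not tested.

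**Figure D2:**
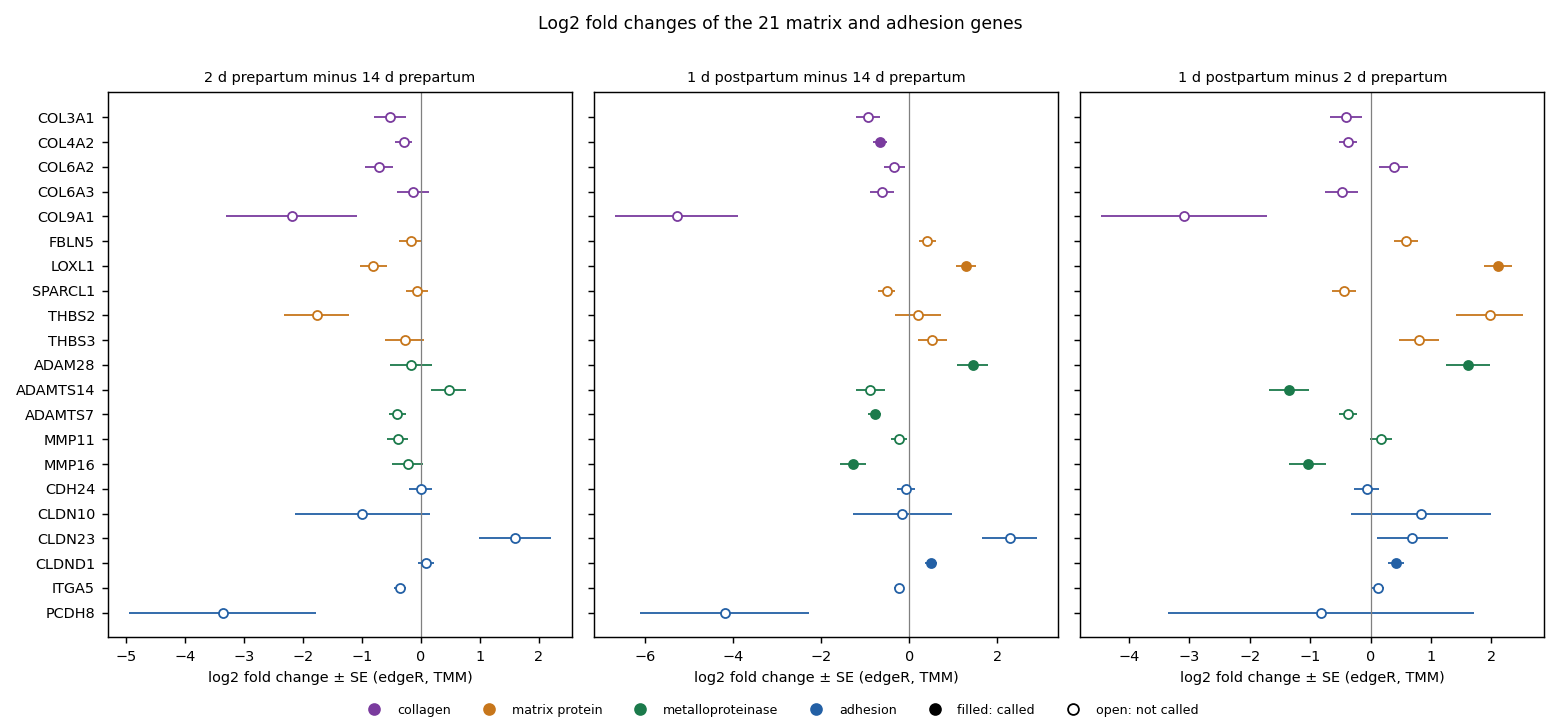
Log2 fold change ± SE of the 21 genes in 3 comparisons (2 d prepartum and 1 d postpartum against 14 d prepartum, and 1 d postpartum against 2 d), ordered by role, with filled points for called genes. Values and calls are from the fit without the sow. No gene is called at 2 d against 14 d, 6 are called at 1 d postpartum against 14 d, and LOXL1 lies at -0.81 in the first comparison and at 2.10 in the last, as THBS2, not called, lies at -1.77 and 1.97.

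Non-overlapping libraries were counted beside the calls. At 2 d prepartum 6 of 21 genes had all libraries below those of 14 d, and these were COL6A2, THBS2, LOXL1, MMP11, ADAMTS7 and ITGA5, while CLDN23 alone had all libraries above. Over all genes tested the shares were 14.1% lower and 15.2% higher. At 1 d postpartum 10 of 21 did not overlap 14 d, near the 39.0% of all genes, with 4 higher (19.5% of all genes) and 6 lower (19.4%). From 2 d prepartum to 1 d postpartum 7 of 21 did not overlap, where 27.2% of all genes did not.

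Ratios of gene pairs within a library do not depend on the scaling between libraries. Per transcript length COL3A1 exceeded LOXL1 by 104, 101 and 152 times at 14 d, by 153, 142 and 143 times at 2 d prepartum and by 35.0, 13.2 and 35.6 times at 1 d postpartum. The postpartum ratios were all below those of 14 d. The COL6A3 to COL6A2 ratio was 0.614, 0.9601 and 0.816 at 14 d and 1.17, 1.21 and 1.18 at 2 d, so that the 2 d libraries lay close together and above all those of 14 d, and it was 0.695, 0.576 and 0.674 at 1 d postpartum. The geometric mean of the THBS2 to THBS3 ratio went from 2.15 at 14 d to 0.711 at 2 d, that of ADAMTS14 to ADAMTS7 from 0.254 to 0.478, and that of MMP16 to MMP11 from 0.0552 at 14 d to 0.0283 at 1 d postpartum, all without overlap. In these 5 comparisons the exact two-sided permutation test gave p = 0.1, the smallest that 3 against 3 libraries allow, and 0.28 after adjustment over the 14 ratio tests. The other 9 overlapped, among them both comparisons of COL3A1 with COL4A2 and of CLDN23 with CLDN10.

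**Figure D3:**
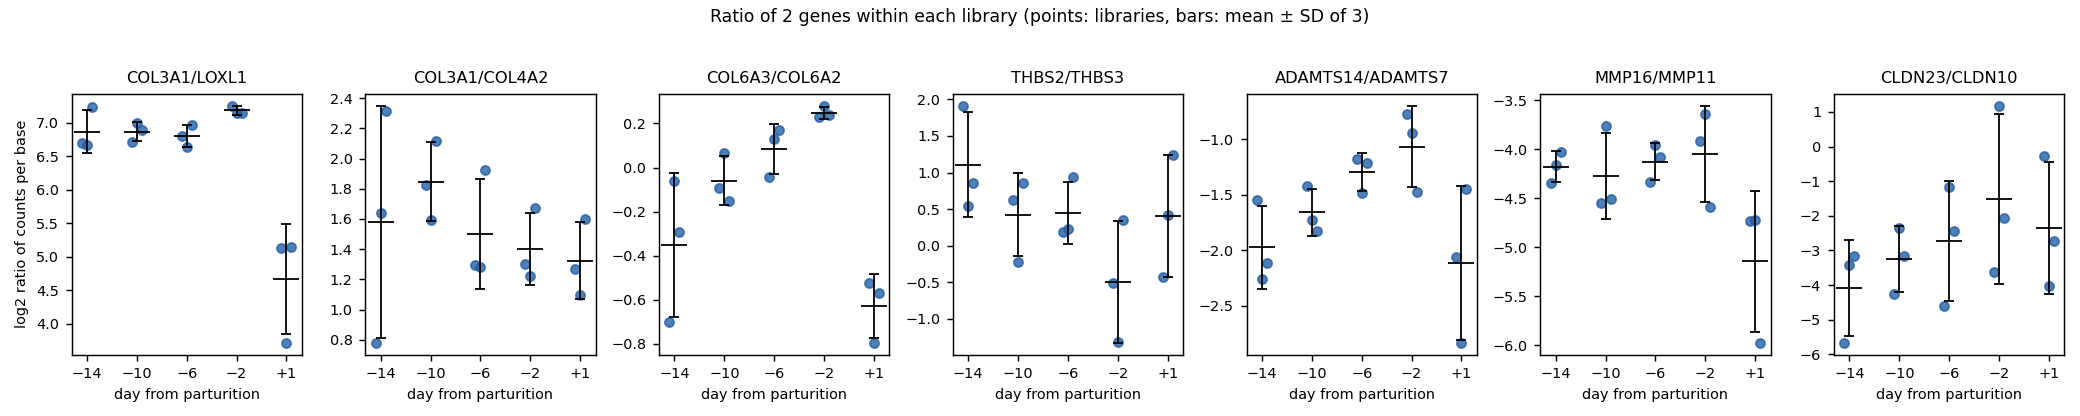
Within-library log2 ratio of 7 gene pairs per transcript length by day from parturition, with points for libraries and bars for the mean ± SD of 3. COL3A1 to LOXL1 has a mean of 6.87 at 14 d prepartum and of 4.67 at 1 d postpartum, and COL6A3 to COL6A2 is highest at 2 d prepartum at 0.25.

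Libraries of a sow deviated from their time means together, and a fit with the sow as a block called more of the 21 genes. The overall test then passed 15 of 21, against 33.8% of all genes. At 6 d prepartum COL9A1 was called lower than at 14 d (log2 difference -1.09, adjusted p = 0.046, edgeR), with 0.467% of all genes called. At 2 d prepartum 5 of 21 were called, all lower, where 8.68% of all genes were called and 3.61% called lower. They were COL9A1 at -2.34 (adjusted p = 0.00026), PCDH8 at -3.49 (adjusted p = 0.0040), COL6A2 at -0.71 (adjusted p = 0.0072), THBS2 at -1.82 (adjusted p = 0.0077) and LOXL1 at -0.80 (adjusted p = 0.039). PCDH8 passed the filter through early libraries in which it was high, and CLDN23 mainly through later ones, so a change of either was in part set by the filter. At 1 d postpartum 14 of 21 were called against 14 d, compared with 30.1% of all genes, with 4 higher (16.3% of all genes) and 10 lower (13.8%). The 6 genes called without the block were among the 14, and the added ones were COL9A1 at -5.51 (SE 0.29, adjusted p = 4.8e-07), COL3A1 at -0.93, COL6A3 at -0.66, COL6A2 at -0.36, SPARCL1 at -0.50, ADAMTS14 at -0.83, PCDH8 at -4.63 and CLDN23 at 2.23. With these, all 5 collagen chains were lower postpartum than at 14 d. From 2 d to 1 d postpartum 7 of 21 were called against 20.1% of all genes, THBS2 at 1.88 and COL9A1 at -3.17 being added. The sow of each library is not in the sample labels and was joined from read totals.

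Other tests gave other counts of called genes. DESeq2 called 13 of 21 genes overall (35.7% of all genes), 3 at 2 d against 14 d (8.02%), 11 at 1 d postpartum against 14 d (30.8%) and 6 between 2 d and 1 d postpartum (19.8%). With limma-voom in which the sow was a random effect these counts were 11 (33.8%), 2 (8.19%), 8 (29.1%) and 6 (18.4%). Total counts without TMM shifted the median of all genes at 1 d postpartum against 14 d by -0.65 on the log2 scale and gave 13 (44.0%), 4 (10.6%), 11 (42.1%) and 6 (16.2%), with 0 of those 11 higher. With the RNA integrity number (RIN), which a supplementary listing of the study gives per library, as a covariate 1 of 21 was called overall (7.64% of all genes), 0 at 2 d (0%), 0 at 1 d postpartum against 14 d (0.563%) and 1 between 2 d and 1 d postpartum (7.40%), which was LOXL1. The log2 change with RIN at 1 d postpartum against 14 d was 1.35 for LOXL1 (adjusted p = 0.26), -0.94 for ADAMTS7 (adjusted p = 0.23), -0.99 for COL4A2 (adjusted p = 0.23) and 1.32 for ADAM28 (adjusted p = 0.53), so these 4 kept their direction and were not called. Without RIN the shares of all genes were 2.84% at 2 d against 14 d and 23.7% at 1 d postpartum against 14 d. Between 2 d and 1 d postpartum the share was 15.2%. Whether RIN differed between the times was not tested.

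A single library could also move these counts. At 1 d postpartum against 14 d, 3 of 21 were called without the 2 d library of sow 1 (replicate 28) or the postpartum library of sow 2 (replicate 40), and the range over all 15 omissions was 3 to 7. In the overall test 3 passed without either of these libraries, 4 without 14 d replicate 4 or 7 or 6 d replicate 19 or 25, and up to 8 otherwise. At 2 d against 14 d, 2 were called without postpartum replicate 37 and 1 without replicate 40. Between 2 d and 1 d postpartum the count was 2 without replicate 7, 19, 25, 28 or 40, 3 without replicate 1, 4, 13, 16, 31 or 43, and between 4 and 6 without each of the others. The share over all genes is not given for these fits, so a shift particular to the 21 cannot be told from one across all genes.

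Outside the 21, the 116 further genes of the same prefixes gave a wider view of the family, with 42 called at 1 d postpartum against 14 d, 24 higher and 18 lower, and a median log2 change of -0.01, where 23.7% of all genes were called, 13.3% higher and 10.4% lower. This balance depended on the scaling, since without TMM 54 were called, 9 higher and 45 lower, with a median of -0.65. The shift ran through all genes, of which 42.1% were called without TMM. Of all 13503 genes 530 were then called higher and 5158 lower, with a median of -0.635. At 2 d prepartum 3 were called (2.84% of all genes) and 82 of 116 lay below 0, with a median of -0.22. With the sow as a block 14 were called at 2 d (8.68% of all genes), 2 higher and 12 lower, and 7 of those 12 were collagen chains. Of 21 collagen chains in this set 4 rose and 6 fell postpartum, against 1 and 11 without TMM. Of 22 integrins 6 rose and 1 fell, a balance that without TMM turned to 2 and 8. Of 35 metalloproteinases and inhibitors 7 rose and 4 fell, which without TMM were 2 and 10, and of 5 claudins 2 rose and 1 fell, or 1 and 1 without TMM. Among 12 cadherins and protocadherins 1 fell (5 without TMM), and among 10 other matrix genes 2 rose, or 1 rose and 2 fell without TMM. For 1 of the integrins counted as rising, ITGAV, the change of 0.51 was -0.14 without TMM.

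ITGB6, the beta chain of an integrin that activates latent TGF-beta, had the largest postpartum rise of the 116. It went from 7.43 ± 2.63 CPM at 14 d through 39.96 CPM at 2 d prepartum to 181 ± 64.2 CPM at 1 d postpartum (mean ± SD, n = 3), a log2 change of 4.60 (SE 0.52, adjusted p = 4.9e-05, edgeR), and it was also called at 2 d, at 2.43 (adjusted p = 0.021). ADAMTSL4, a secreted relative of ADAMTS proteases, rose from 11 ± 4.17 to 128 ± 104 CPM, by 3.55 (SE 0.51, adjusted p = 0.00025), with an SD nearly as large as the mean. The largest falls were those of COL11A2, from 16.02 ± 15.96 to 1.54 ± 0.902 CPM (log2 change -3.31, adjusted p = 0.0081), and ADAM23, from 6.72 ± 1.31 to 0.669 ± 0.0688 CPM (log2 change -3.31, adjusted p = 5.7e-05). COL2A1 and COL11A1, which with COL9A1 and COL11A2 are best known from cartilage, were called lower already at 2 d prepartum, at -0.86 (adjusted p = 0.029) and -0.98 (adjusted p = 0.044), and reached -2.81 and -2.12 at 1 d postpartum.

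Laminin chains divided, with 3 of 11 laminin, nidogen and perlecan genes rising (13.3% of all genes) and 5 falling (10.4%) at 1 d postpartum against 14 d. Without TMM 2 rose and 8 fell, where 530 genes of all those tested were called higher and 5158 lower. The laminin and nidogen genes were picked out for naming after their values were seen. Among the genes that rose were 2 laminin chains known from epithelial basement membranes. LAMA3 rose by 0.67 on the log2 scale (adjusted p = 0.00045, edgeR) and LAMB3 rose from 73.3 ± 14.2 to 228 ± 19.8 CPM (1.63, adjusted p = 0.00033). Without TMM the change of LAMA3 was 0.04. LAMA4 fell by 1.05 (adjusted p = 0.0012), LAMB1 fell by 0.78 (adjusted p = 0.00026), LAMC3 fell by 1.66 (adjusted p = 2.8e-05), NID1 fell by 0.60 (adjusted p = 0.027) and NID2 fell by 1.12 (adjusted p = 0.0011). LAMA4 is a chain of vascular laminins, and the nidogens link laminin to type IV collagen, whose alpha-2 chain COL4A2 fell over the same interval. COL17A1, the hemidesmosomal collagen of epithelia, rose by 1.13 (adjusted p = 0.0017). LOX, the founding lysyl oxidase, rose from 1.24 ± 0.374 to 4.46 ± 0.881 CPM (1.86, adjusted p = 0.00098), alongside LOXL1. Without TMM the change was 0.553 for COL17A1 and 1.23 for LOX, and neither was called. LOXL4, of the same family, had a change of 1.21 with TMM and was not called.

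**Figure D4:**
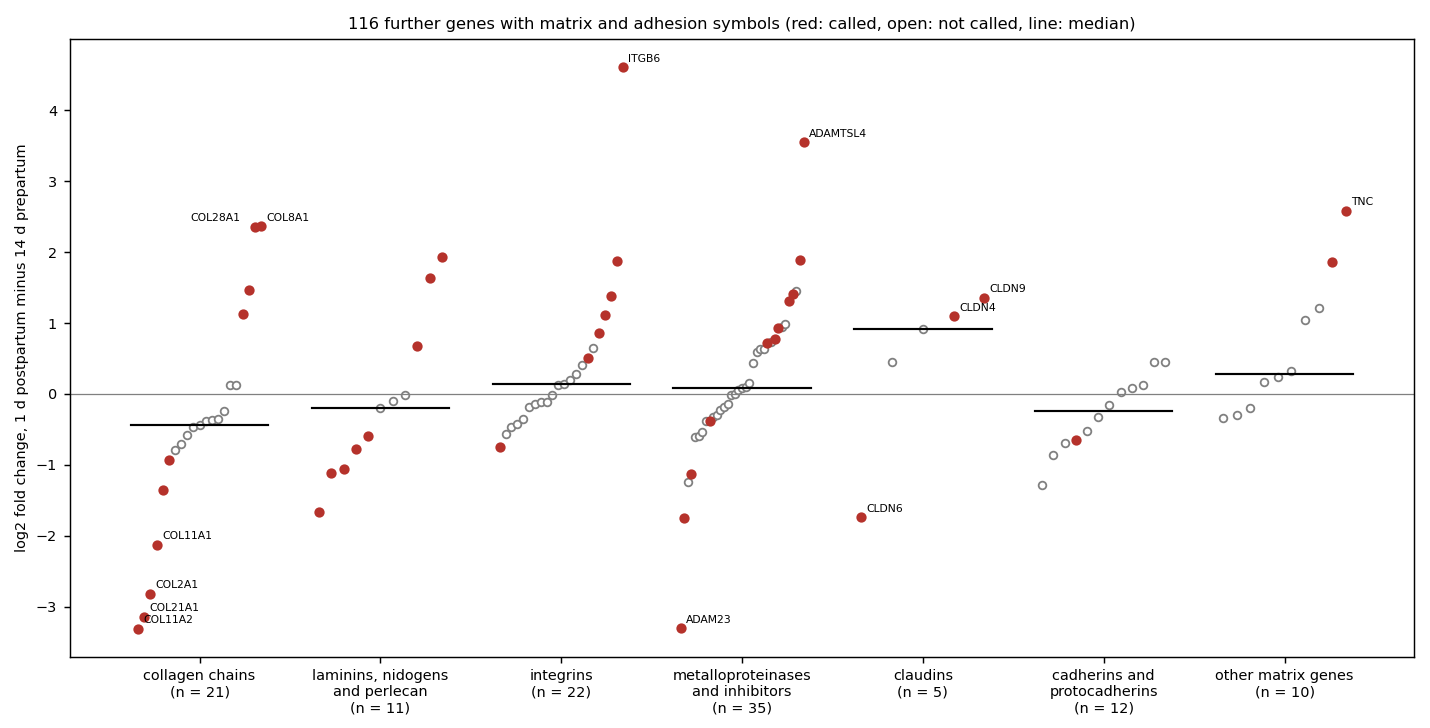
Log2 fold change at 1 d postpartum against 14 d prepartum of the 116 further genes by prefix group, ordered within each group by size, with called genes in red and a line at the group median. Collagen chains have a median of -0.44 and claudins of 0.92, and ITGB6 is the highest point at 4.60.

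Genes that work with the matrix were read from 4 lists, beside the 13.3% of all genes called higher and 10.4% called lower at 1 d postpartum against 14 d. Without TMM the calls shifted downward across all genes tested, of which 42.1% were called, 530 genes higher and 5158 lower. The counts higher and lower were then 1 and 9 for other matrix proteins and 1 and 1 for collagen-modifying enzymes and receptors. They were 0 and 3 for junctions and 0 and 4 for TGF-beta and BMP signalling. With TMM, of 16 other matrix proteins and proteoglycans 3 rose and 3 fell at 1 d postpartum against 14 d, and at 2 d prepartum 0 of 16 were called while all 16 lay below 0, with a median of -0.63. CTGF, a matricellular protein, rose from 28.4 ± 6.51 to 373 ± 66.9 CPM (log2 change 3.71, SE 0.48, adjusted p = 0.00013, edgeR), and CYR61, of the same family, rose by 1.47 (adjusted p = 0.024). VWA2 fell by 2.07 (adjusted p = 0.0036), and lumican (LUM), a collagen-binding proteoglycan, fell by 1.21 (adjusted p = 0.00096). Of 6 collagen-modifying enzymes and collagen receptors 3 rose and none fell, namely the collagen receptors DDR2 by 1.39 (adjusted p = 0.00052) and DDR1 by 1.13 (adjusted p = 0.0068) and the prolyl hydroxylase P4HA1 by 0.67 (adjusted p = 0.00099), for which the change was 0.04 without TMM. Of 10 epithelial junction genes 2 rose and 2 fell. NECTIN2 rose by 0.92 (adjusted p = 0.0020) and F11R by 0.52 (adjusted p = 0.0076), the latter at -0.10 without TMM, while the desmosomal plakin DSP fell by 0.90 (adjusted p = 0.00074) and MAGI3 fell by 0.88 (adjusted p = 0.0018). Of 11 TGF-beta and BMP signalling genes 2 rose, BMP4 by 0.88 (adjusted p = 0.010) and BMPR2 by 0.48 (adjusted p = 0.015, and -0.20 without TMM), and ACVR1 fell by 0.65 (adjusted p = 0.0078). At 2 d prepartum against 14 d ACVR1B was the only gene of the 4 lists called without the sow in the fit, at -1.16 (adjusted p = 0.018). With the sow as a block LUM, OLFML2A and WISP3 of the matrix proteins, DSP of the junctions and ACVR1 and ACVR1B were called lower there, and RAB13 of the junctions was called higher.

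Markers of other cell types that a biopsy can hold were summed in the same way, and their part in the results above was not tested. At 1 d postpartum against 14 d, leukocyte markers went from between 360 and 409 CPM to between 308 and 373 CPM, with 2 of 9 lower, and pericyte and smooth muscle markers had 0 of 3 called. Adipocyte markers had 2 of 4 called higher, and skeletal muscle markers 2 of 3, from between 3.14 and 3.35 CPM at 14 d to between 11.6 and 28.1 CPM at 1 d postpartum. Skin markers ranged from 11.04 to 364 CPM at 14 d and from 21.1 to 25.8 CPM postpartum, with 0 of 4 called. Over all genes, 13.3% were called higher and 10.4% lower. Without TMM, 5 of 9 leukocyte markers were called lower, 0 of 4 adipocyte markers were called and 1 of 4 skin markers was lower. Skeletal muscle markers kept 2 of 3 higher, and pericyte and smooth muscle markers had 0 of 3 called. Calls over all genes then were 530 higher and 5158 lower.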

How the data were processed

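Single-end 100 nt reads of mammary messenger RNA were trimmed by the authors, aligned to Sscrofa10.2 with STAR 2.5.1b and counted with featureCounts (Subread 1.5.0), reverse-stranded and on exons. The authors deposited raw counts per gene, without normalization. File headers name the Ensembl annotation and the published methods RefSeq. Time points came from the sample labels. The labels do not name the sow, which was joined within each time point by matching library totals with the supplementary read totals. The main fit left out the sow and treated the repeated libraries of a sow as independent. Its p-values measure the spread between the 3 sows of a time. In the fits that hold the sow they measure the spread with the sow taken into account. Members and gene lists were chosen with earlier results of these data known. Every member was named, and from each list outside the rule the 2 largest rises and the 2 largest falls among genes called at 1 d postpartum against 14 d. Further genes were named beyond these, with their values known. Among them were ITGAV, COL2A1, COL11A1, the laminins and nidogens, COL17A1, LOX, LOXL4 and TNC.

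Counts of all 15 libraries were fitted together in R 4.3.3 with edgeR 4.0.16 (TMM, quasi-likelihood, time as the factor) after a filter of 1 CPM in 3 libraries. Benjamini-Hochberg adjustment ran over 13503 genes at 0.05. SE is the absolute log2 change divided by the square root of F. Alternatives used DESeq2 1.42.0, limma 3.58.1, the sow, RLE, no TMM, other filters, thinning to the shallowest library, 6 libraries only, a threshold of 0.01, RIN, and each library left out. Ratios had 0.5 added to each count. Deviations from the time means correlated within sow (mean r 0.396 over 30 library pairs, lowest 0.103) while the mean r between sows was -0.198 over 60 pairs, so the sow pairs the libraries. The median total was 17726719 counts. No 2 libraries were identical. Scripts were tested on simulated counts. Columns of the paper's own comparisons were not used.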

Additional observations from a re-analysis of the deposited data

How the results depend on the processing

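Counts of the 21 genes called were 7 for any effect of time, 0 at 10, 6 and 2 d prepartum and 6 at 1 d postpartum (each against 14 d), and 5 from 2 d to 1 d postpartum. With the sow as a replicate block they were 15, 0, 1, 5, 14 and 7, and among the calls of single genes that block ended none of the calls at 1 d postpartum against 14 d. For any effect of time, DESeq2 gave 13, limma-voom holding the sow 11, no TMM 13, RIN 1 and a threshold of 0.01 gave 2. At 2 d against 14 d, DESeq2 gave 3, limma-voom holding the sow 2, no TMM 4 and a fit of only the 6 libraries 2. At 1 d postpartum against 14 d, DESeq2 and no TMM gave 11 each, RIN 0 and the 0.01 threshold 2. From 2 d to 1 d postpartum, RIN gave 1, the 6 libraries 1 and the 0.01 threshold 2. Leaving out each library gave 3 to 8 for any effect of time, 0 to 0 at 10 and 6 d, 0 to 2 at 2 d, 3 to 7 at 1 d postpartum against 14 d and 2 to 6 against 2 d. For the 0.01 threshold, the 6 libraries and the fits without 1 library the share over all genes is not given. Those counts therefore do not show a change particular to the 21.

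Directions turned in few cases, and the cause was not tested. Without TMM, CLDND1 was -0.34 at 2 d and -0.13 at 1 d postpartum against 14 d, and at 1 d postpartum THBS2 was -0.33, THBS3 was -0.087 and FBLN5 was -0.26. With RIN, MMP16 was 0.081 at 2 d and PCDH8 was 2.19 at 1 d postpartum. CLDN10 at 1 d postpartum was 0.37 with limma-voom, 0.42 when that model held the sow and 0.93 with the sow as a replicate block. Over the fits that left out 1 library, the ranges that crossed 0 were -0.063 to 0.15 for CLDND1 and -0.37 to 0.05 for ADAM28 at 2 d, and -0.61 to 0.60 for THBS2, -0.22 to 0.15 for CDH24 and -0.77 to 1.42 for CLDN10 at 1 d postpartum. The 5 ratio differences without overlap kept their direction with another pseudocount or a library left out. Of the others COL3A1 to COL4A2 turned to 0.189 at 2 d and 0.112 at 1 d postpartum without 14 d replicate 7, ADAMTS14 to ADAMTS7 to 0.074 and 0.219 at 1 d postpartum without replicate 1 or 40, and MMP16 to MMP11 also turned at 2 d without replicate 31. With 3 libraries per time, low genes such as PCDH8, CLDN23 and MMP16 rested on few reads.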
